A study of Mus musculus with 6 samples.

Results

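The syntrophins and the dystroglycan complex are described here through 9 genes, Sntb1, Sntb2, Sntg1, Sntg2, Dmd, Utrn, Dag1, Sgcb and Sgce, out of 22180 genes tested. The set was chosen by earlier measured differences between knockout and wild-type arrays, in which Sntb1 was among the genes that rose most, and by known membership of the complex. Members were read by symbol, from probe sets annotated to exactly 1 of these symbols, and each gene had a single probe set, so that no choice by mean level was needed. The knockout group was 3 arrays of untreated SLK-knockout cells and the control group was 3 arrays of untreated SLK wild-type cells, both labelled as derived from NeuNDL, a mutant Neu (ErbB2) receptor that signals without ligand, and grown in serum with a mammary epithelial supplement. SLK belongs to the Ste20 kinases and is known to act on focal adhesions and migration. The series names passages 9, 19 and 29, but no label links a passage, clone or line with an array, so the p-values measure the spread between these samples, which may be technical. How many clones or tumours the lines stand for, and how Slk was deleted, is not stated in the labels.

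Dystroglycan, the product of Dag1, is a laminin receptor cut into an extracellular and a transmembrane part. Its cytoplasmic tail binds dystrophin or utrophin, which hold actin, and these in turn carry dystrobrevins and syntrophins, adaptor proteins with a PDZ domain that bring channels, kinases and other signalling proteins to the membrane. Sarcoglycans form a subcomplex beside dystroglycan. The complex is best known from muscle, where loss of its members causes muscular dystrophies. In mammary epithelial cells dystroglycan is known to anchor laminin at the cell surface and to take part in polarity and in the response to basement membrane.

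Promoter windows are printed for Sgcb, because it is a gene of the complex with separated genotypes and a window in the RefSeq table. They are printed for Dmd because a single array value stands for a gene with more than 1 start, whose windows do not overlap. Dag1 and Sntg2 also had more than 1 window each, and theirs overlap. Windows of 300 bases, from 250 bases before to 50 bases after a start, were found for 5 of the 9 genes in the RefSeq table of GRCm38.p6. Capitals mark the GC box GGGCGG on either strand, which 35.7% of the 32851 windows of this table hold. The Sgcb window lies at chr5:73647688-73647987 on the minus strand, and the Dmd windows lie at chrX:82948620-82948919 and chrX:85048045-85048344 on the plus strand.
Sgcb: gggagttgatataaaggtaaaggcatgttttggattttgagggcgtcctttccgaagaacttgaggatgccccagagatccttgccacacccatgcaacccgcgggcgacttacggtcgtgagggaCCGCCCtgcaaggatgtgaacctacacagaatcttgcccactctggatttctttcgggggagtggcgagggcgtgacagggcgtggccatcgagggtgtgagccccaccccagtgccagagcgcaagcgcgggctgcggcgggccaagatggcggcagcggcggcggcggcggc
Dmd upstream start: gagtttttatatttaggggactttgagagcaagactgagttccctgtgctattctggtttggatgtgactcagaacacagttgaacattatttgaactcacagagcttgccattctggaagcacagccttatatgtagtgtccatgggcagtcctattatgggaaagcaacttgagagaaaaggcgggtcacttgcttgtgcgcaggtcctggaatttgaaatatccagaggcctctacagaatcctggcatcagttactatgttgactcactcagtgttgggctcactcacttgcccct
Dmd downstream start: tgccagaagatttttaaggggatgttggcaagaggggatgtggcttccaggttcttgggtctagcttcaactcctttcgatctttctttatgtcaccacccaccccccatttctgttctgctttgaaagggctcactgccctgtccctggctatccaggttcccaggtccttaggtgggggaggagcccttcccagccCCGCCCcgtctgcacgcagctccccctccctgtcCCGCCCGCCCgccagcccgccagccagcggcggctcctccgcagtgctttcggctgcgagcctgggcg
The Sgcb window held 1 GC box and 62.7% G and C. The upstream Dmd window held none and 45.7% G and C, against 3 GC boxes, 2 of them overlapping, and 62.7% in the downstream window. The median window of the table had 52.7%. A match describes letters only, and the array data do not say which Dmd start was in use.

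On the arrays as a whole, medians lay between 3.93 and 3.97 log2 units over 41345 probe sets and pairs of arrays correlated at 0.990 to 0.994 across probe sets. Slk, the targeted gene (probe set 17360181), read 7.14, 7.21 and 7.20 on knockout arrays, against 8.21, 8.30 and 8.34 on wild-type arrays. Its signal was 2.15-fold lower in knockout cells (limma adjusted p = 0.0021), a partial loss of signal, and which part of the transcript the probes read is not stated in the labels. Markers of epithelium ranged from bright to dim. Krt18, the brightest, had a mean log2 value of 10.6 in knockout cells and 10.5 in wild-type cells. Elf3 (3.77 in knockout and 3.72 in wild-type cells) and Esrp1 (3.61 in knockout and 3.70 in wild-type cells) read below the median gene of the arrays, 4.37 to 4.44. The list moved both ways, with 5 of 10 means higher and 5 lower in knockout cells (log2 fold changes from -0.50 to 0.15). Its 1 call was Cdh1, which fell (log2 fold change -0.43, limma adjusted p = 0.0224), though the mean of its probe sets gave -0.27 and no call (adjusted p = 0.453). The mean level of the 10 epithelial markers was 7.16 to 7.19 on knockout arrays and 7.25 to 7.30 on wild-type arrays, and that of 10 fibroblast markers was 5.429 to 5.476 on knockout arrays and 5.479 to 5.525 on wild-type arrays. The fibroblast markers also went both ways, 5 higher and 5 lower in mean (log2 fold changes from -0.67 to 0.43). Pdgfrb, the only call, fell (log2 fold change -0.67, adjusted p = 0.0066), and the brightest was Pdgfra, at 7.72 in knockout cells and 7.62 in wild-type cells. Of 9 myoepithelial markers 3 had higher and 6 lower means (log2 fold changes from -0.66 to 0.42), and Krt14, the brightest, was the only call and fell (log2 fold change -0.66, adjusted p = 0.0096). An unadjusted limma p under 0.05 was found for 5 of 10 epithelial, 6 of 10 fibroblast and 3 of 9 myoepithelial markers, beside 10.2% of all genes. With 1 array left out, Cdh1, Krt14 and Pdgfrb kept their calls in 0, 1 and 5 of 6 fits in that order. None of 11 skeletal muscle, 7 Schwann cell, 10 endothelial and 9 leukocyte markers passed limma's test, and 1, 2, 3 and 2 of them in that order had an unadjusted p under 0.05. The brightest of these were Tnni2 at 5.70 in knockout and 5.75 in wild-type cells, Pmp22 at 9.30 in knockout and 9.18 in wild-type cells, Kdr at 4.27 in knockout and 4.59 in wild-type cells, and Cd14 at 8.19 in knockout and 8.03 in wild-type cells. The part of these marker differences in the values below was not tested. In a bulk culture a change in the share of cells of 1 type and a change of RNA per cell cannot be told apart.

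The question was which of the 9 genes had different levels in the SLK-knockout and the wild-type samples. Only Sntb1, encoding beta-1 syntrophin, passed the test, and it was higher in knockout cells. The call rests on limma with Benjamini-Hochberg adjustment over all 22180 genes at 0.05, which called 0.437% of them, and 0.325% as higher. The 9 genes were proposed with this contrast in view and Sntb1 was among its leading genes, so a count of 1 in 9 is a description, and nothing is read from it. Knockout and wild-type arrays did not overlap for 3 of the 9, Sntb1, Sntg1 and Sgcb, all with the higher values in knockout cells. Of all genes 16.9% were separated in this way, 8.79% with higher and 8.1% with lower values in knockout cells. The same 3 genes had an unadjusted p under 0.05, which 10.2% of all genes had. The median log2 fold change of the 9 genes was 0.04, beside 0.0038 for all genes tested. All values are the authors' log2 expression values, and a difference of 1 is a 2-fold difference in probe set signal, compressed for dim probe sets.

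**Figure D1:**
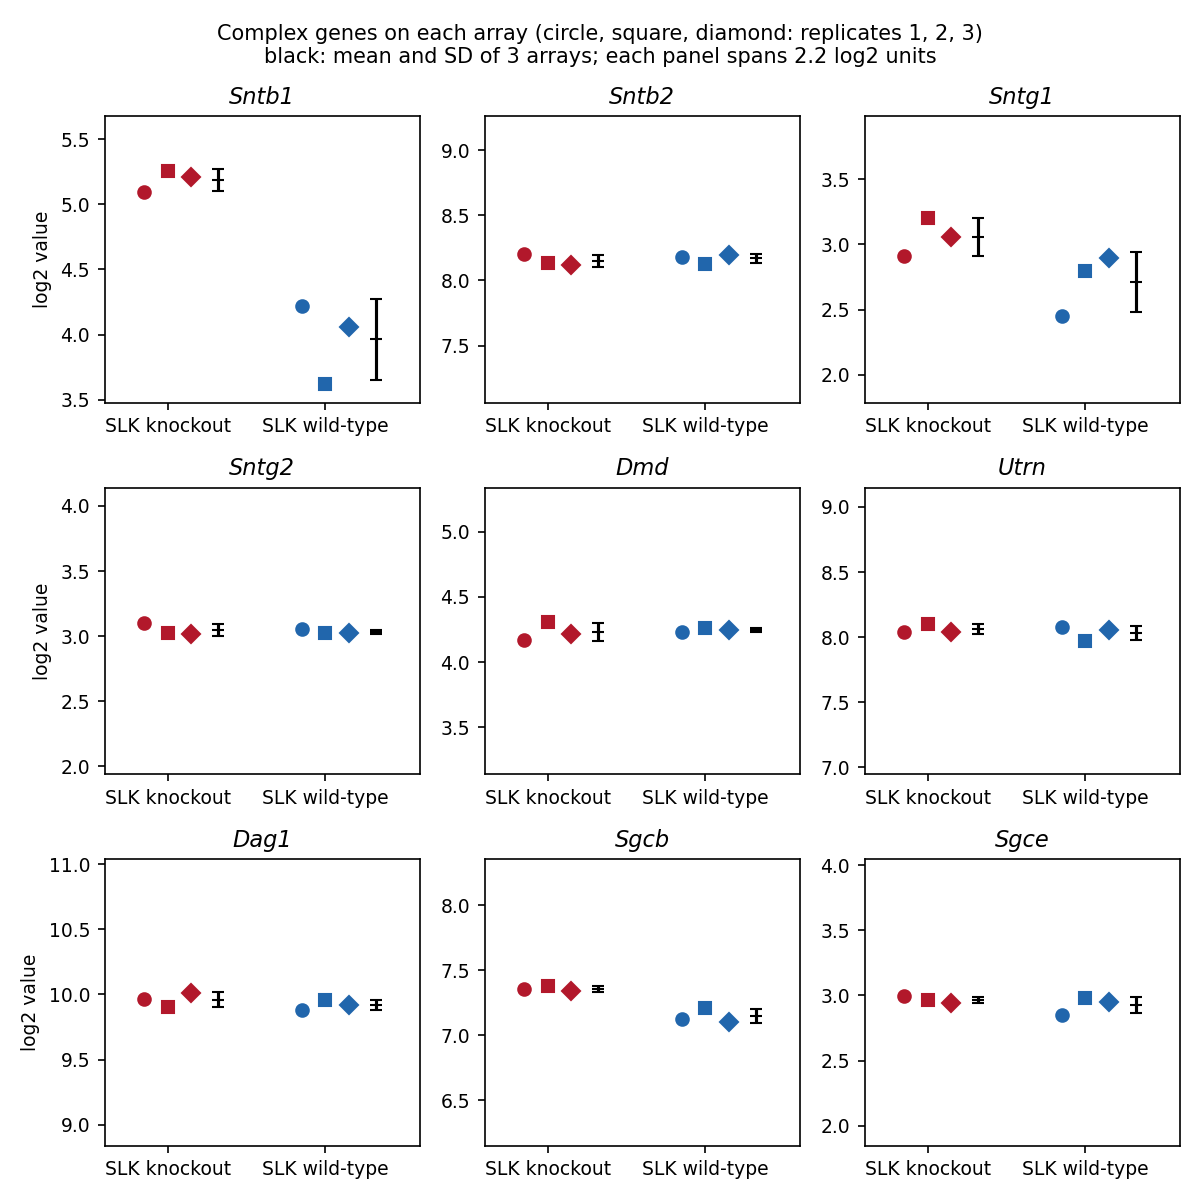
Log2 value of each of the 9 genes on each array, SLK knockout on the left and wild-type on the right of each panel, with the mean and SD of 3 arrays in black and the same span of the y axis in every panel. Sntb1 sits at 5.10 to 5.26 on knockout arrays and at 3.62 to 4.22 on wild-type arrays, while the points of Sntb2, Sntg2, Dmd, Utrn, Dag1 and Sgce overlap between genotypes.

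Among the syntrophins, Sntb1 (probe set 17317153) had log2 values of 5.10, 5.26 and 5.21 on knockout arrays, against 4.22, 3.62 and 4.05 on wild-type arrays. All 3 knockout arrays lay above all wild-type arrays, by at least 0.88 log2 units, and the wild-type arrays were the more spread, with array 2 lowest. The group means were 5.19 ± 0.08 in knockout cells and 3.96 ± 0.31 in wild-type cells (SD, n = 3 each), so the gap between means was larger than the spread within either genotype. Sntb1 rose 2.34-fold (log2 fold change 1.22, SE 0.15, 95% interval 0.86 to 1.59, limma adjusted p = 0.0349). In wild-type cells the probe set read below the median gene of the arrays, which lay between 4.37 and 4.44, and in knockout cells above it.

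The size of the Sntb1 difference was steadier than its call. With 1 array left out at a time, its log2 fold change stayed between 1.05 and 1.35. The limma adjusted p was 0.137, 0.154 and 0.139 without knockout array 1, 2 or 3, and 0.0560 and 0.124 without wild-type array 1 or 3. Without wild-type array 2, the lowest, it was 0.0334 and the log2 fold change was 1.05. The call was thus kept in 1 of 6 such fits, and it was also lost when the fit ran on all 41345 probe sets singly (adjusted p = 0.129) and with a replicate block (adjusted p = 0.195).

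**Figure D2:**
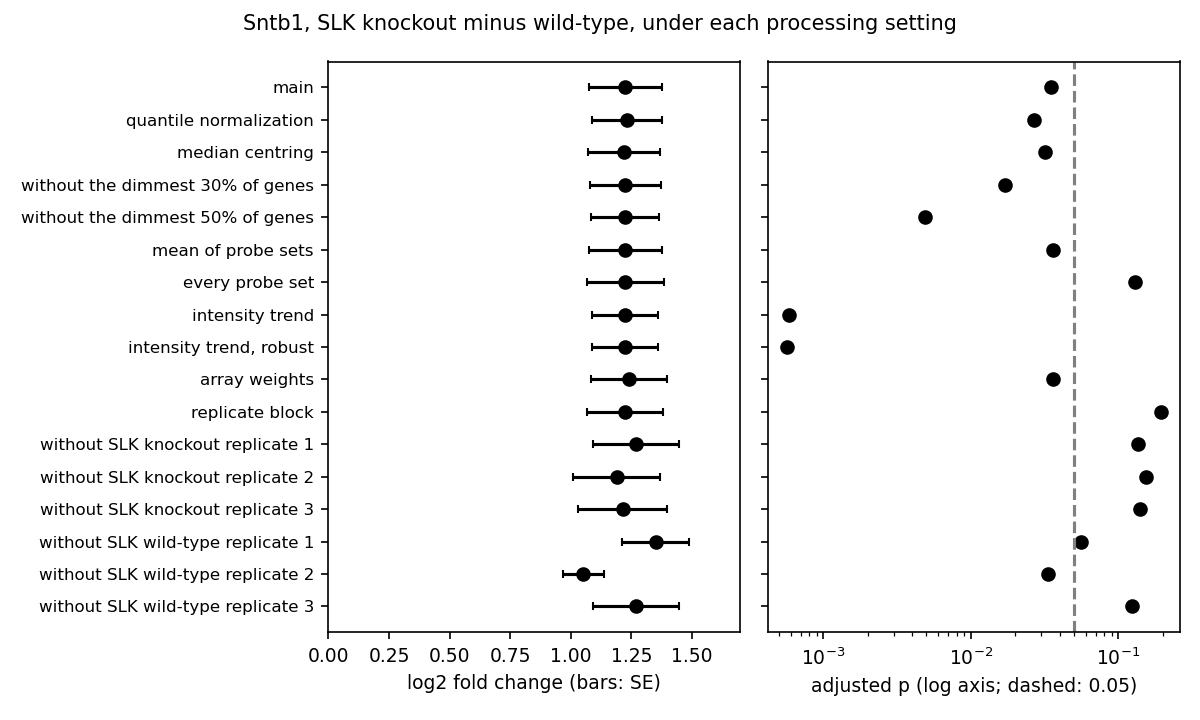
Log2 fold change of Sntb1 with its SE (left) and adjusted p on a log axis (right), SLK knockout minus wild-type, for the main setting at the top and 16 alternatives. The fold change stays between 1.05 and 1.35, and 9 of the 16 alternatives have an adjusted p left of the dashed line at 0.05.

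Sntb2 encodes beta-2 syntrophin, the other beta syntrophin, known to be found widely outside muscle. Its values (probe set 17505215) were 8.20, 8.13 and 8.12 on knockout arrays, against 8.18, 8.13 and 8.19 on wild-type arrays. The arrays of the genotypes were interleaved, and the log2 fold change was -0.02 (SE 0.05, 95% interval -0.14 to 0.10, limma adjusted p = 0.937). An interval of this width holds no difference as large as that of Sntb1, though the difference between the changes of the 2 genes was not tested.

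Sntg1 and Sntg2 encode the gamma syntrophins, which are known mainly from the nervous system. Sntg1 (probe set 17221122) was dim, with 2.91, 3.20 and 3.05 on knockout arrays, against 2.45, 2.79 and 2.89 on wild-type arrays. Its groups were separated by only 0.02 log2 units, less than the spread within either genotype. The log2 fold change was 0.34 (SE 0.13, 95% interval 0.03 to 0.66), and it did not pass the test (limma adjusted p = 0.446). It was 0.21 without wild-type array 1 and 0.43 without wild-type array 3. Sntg2 (probe set 17280452) read 3.10, 3.02 and 3.01 on knockout arrays, against 3.05, 3.03 and 3.02 on wild-type arrays. These arrays overlapped, and Sntg2 differed by 0.01 log2 units (SE 0.05, limma adjusted p = 0.957), with a sign that turned when knockout array 1 was left out. At such low values neither gene can be said to be on or off, since no detection calls were used.

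Dystrophin and utrophin are the actin-binding linkers to which syntrophins attach. Dmd (probe set 17536078) had log2 values of 4.17, 4.31 and 4.21 on knockout arrays, against 4.23, 4.26 and 4.25 on wild-type arrays. The wild-type values lay inside the range of the knockout values, and the log2 fold change was -0.02 (SE 0.06, limma adjusted p = 0.950), turning in sign without knockout array 1. Dmd makes long and short products from separate starts, including the ones whose windows are printed above, and the probe set gives 1 value for the gene.

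Utrn, which encodes utrophin, the widely expressed relative of dystrophin, read 8.04, 8.11 and 8.04 on knockout arrays, against 8.07, 7.97 and 8.06 on wild-type arrays (probe set 17239268). The arrays overlapped, with means of 8.06 ± 0.04 in knockout cells and 8.03 ± 0.05 in wild-type cells (SD, n = 3 each). Its log2 fold change was 0.03 (SE 0.05, 95% interval -0.10 to 0.15, limma adjusted p = 0.912), and the sign turned without wild-type array 2.

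Dag1, the laminin receptor at the centre of the complex, had a bright probe set (17531168) that read 9.96, 9.90 and 10.01 on knockout arrays, against 9.88, 9.96 and 9.92 on wild-type arrays. The groups overlapped, and the log2 fold change was 0.04 (SE 0.05, 95% interval -0.09 to 0.17, limma adjusted p = 0.846). No array read below 9.88.

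Of the sarcoglycans, Sgcb (beta-sarcoglycan, probe set 17448840) had 7.35, 7.38 and 7.34 on knockout arrays, against 7.13, 7.21 and 7.11 on wild-type arrays. All knockout arrays lay above all wild-type arrays, by at least 0.13 log2 units, more than the range within either genotype (0.04 in knockout and 0.11 in wild-type cells). The means were 7.36 ± 0.02 in knockout cells and 7.15 ± 0.06 in wild-type cells (SD, n = 3 each), 1.16-fold apart. The log2 fold change of 0.21 (SE 0.05, 95% interval 0.09 to 0.33) did not pass over all genes (limma adjusted p = 0.232). It passed in 2 of 16 alternatives, those with an intensity trend in the variance (adjusted p = 0.0418 without and 0.0419 with robust estimation). Its sign was kept in all 16.

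Sgce (epsilon-sarcoglycan, a relative of alpha-sarcoglycan found outside muscle, probe set 17464588) was dim, with 2.99, 2.96 and 2.94 on knockout arrays, against 2.85, 2.98 and 2.95 on wild-type arrays. The groups overlapped, and the log2 fold change was 0.04 (SE 0.05, limma adjusted p = 0.845).

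Taking the 6 genes with an unadjusted p above 0.05 together, Sntb2, Sntg2, Dmd, Utrn, Dag1 and Sgce, their log2 fold changes lay between -0.02 and 0.04. In the main fit their 95% intervals reached from -0.15 to 0.17, so none held a signal difference above 1.13-fold there. With an intensity trend in the variance the SE was larger for Sntg2 (0.10), Sgce (0.10) and Dmd (0.09). It was smaller for Sntb2, Utrn and Dag1 (0.04 each). The 1.13-fold bound thus depends on the variance model for Sntg2, Sgce and Dmd. For the dim probe sets of Sntg2 and Sgce any such bound is on the signal, and a difference in transcript may be understated.

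**Figure D3:**
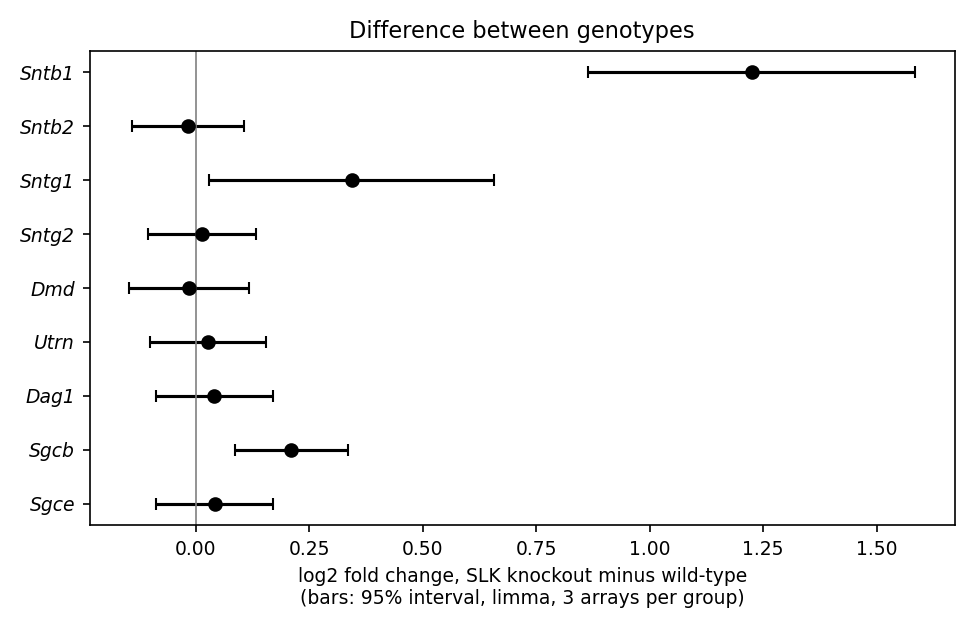
Log2 fold change of the 9 genes, SLK knockout minus wild-type, with 95% intervals from limma (3 arrays per genotype). Sntb1 stands at 1.22, Sntg1 at 0.34 with a wide interval and Sgcb at 0.21, and the intervals of the other 6 genes cross 0.

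The remaining genes around the complex were read from lists set by function, 67 genes of which 56 were measured. Of all genes 0.437% were called, 0.325% as higher and 0.113% as lower, and 10.2% had an unadjusted limma p under 0.05. Of 8 other subunits none passed limma's test and 2 had an unadjusted p under 0.05, Sgcd and Sspn. Sgcd, encoding delta-sarcoglycan, which assembles with beta-sarcoglycan, averaged 5.65 in knockout cells and 5.98 in wild-type cells (log2 fold change -0.33, SE 0.06, adjusted p = 0.0968). Its sign was opposite to that of Sgcb, and it passed in 4 of 16 alternatives. Sspn (sarcospan, a tetraspan protein of the complex) was 0.15 log2 units higher in knockout cells without passing (SE 0.05, adjusted p = 0.40). It has 2 probe sets, and with their mean the limma adjusted p was 0.675. Over the 16 alternatives its log2 fold change ran from 0.08 to 0.18. The list's median was -0.02.

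Enzymes that build the laminin-binding sugar on dystroglycan included no call among 14 measured, with 2 at an unadjusted p under 0.05 and a median log2 fold change of 0.0044. Large2, a glycosyltransferase that extends this sugar, averaged 4.79 in knockout cells and 5.23 in wild-type cells, a log2 fold change of -0.44 (SE 0.10, limma adjusted p = 0.206) that passed in none of the 16 alternatives. Dpm2, a regulatory subunit of dolichol-phosphate-mannose synthase, had 0.14 (adjusted p = 0.479).

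Among 11 measured ligands with laminin G domains, 1 rose and 1 fell, beside 0.325% and 0.113% of all genes. An unadjusted limma p under 0.05 was found for 4 of the 11, beside 10.2% of all genes, and the list's median was 0.11. Lama4, the laminin alpha 4 chain, averaged 6.17 in knockout cells and 4.94 in wild-type cells (log2 fold change 1.23, SE 0.05, limma adjusted p = 0.00082), and it passed in all 16 alternatives. Slit2, a guidance ligand of Robo receptors, averaged 6.27 in knockout cells and 6.78 in wild-type cells (log2 fold change -0.51, SE 0.05, adjusted p = 0.0224), and it lost the call with any 1 array left out (adjusted p up to 0.114) and with the replicate block (adjusted p = 0.160). Lama1, Lama2, Lama3 and Lama5 did not pass, with log2 fold changes of 0.11, 0.15, 0.13 and 0.15.

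Of 11 measured genes for proteins known to bind a syntrophin PDZ domain, 1 rose, beside 0.325% of all genes. An unadjusted limma p under 0.05 was found for 2 of the 11, and the list's median was -0.01. The gene that rose was Ptprn, encoding a dense-core granule protein known to bind beta-2 syntrophin. It averaged 7.61 in knockout cells and 6.47 in wild-type cells (log2 fold change 1.14, SE 0.07, limma adjusted p = 0.0042) and passed in 15 of 16 alternatives, the replicate block excepted (adjusted p = 0.0638). Abca1, a cholesterol exporter known to bind beta syntrophins, averaged 5.16 in knockout cells and 5.38 in wild-type cells (log2 fold change -0.21, SE 0.05, adjusted p = 0.170).

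None of 10 measured cytoskeletal and membrane partners passed limma's test, with 3 at an unadjusted p under 0.05 and a median log2 fold change of 0.08. Krt8, an epithelial keratin, had 0.15 (adjusted p = 0.366) and Ank3, ankyrin-G, had 0.12 (adjusted p = 0.447). Of the 2 proteases known to cut beta-dystroglycan, Mmp9 averaged 4.97 in knockout cells and 4.37 in wild-type cells (log2 fold change 0.60, SE 0.08, adjusted p = 0.0537) and Mmp2 had -0.09 (adjusted p = 0.750), so neither passed, with 1 at an unadjusted p under 0.05. Mmp9 passed in 5 of 16 alternatives, namely both dim-gene filters, both trend fits and array weights.

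**Figure D4:**
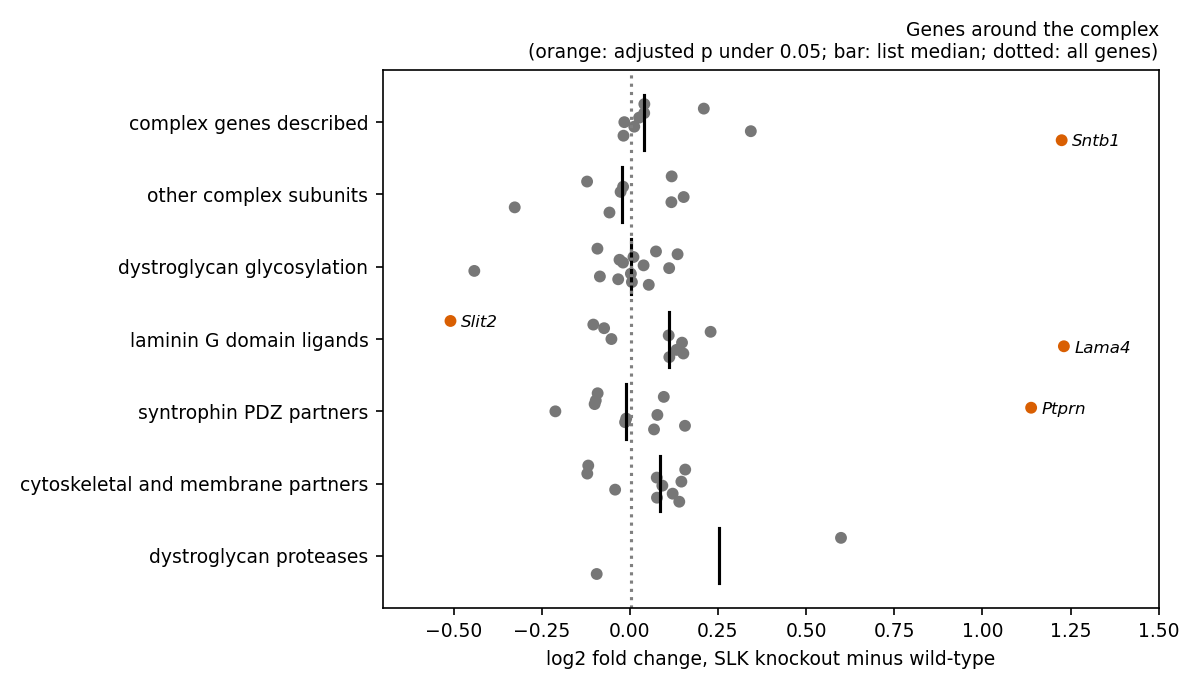
Log2 fold change, SLK knockout minus wild-type, of each measured gene in the 9 described genes and in 6 lists around them, with list medians as black bars and genes past an adjusted p of 0.05 in orange. Sntb1, Lama4 and Ptprn lie above 1, Slit2 at -0.51, and most other points lie near the dotted median of all genes.

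The genes whose log2 values followed Sntb1 most closely over the 6 arrays, by Pearson's r, were Svil (0.997), Srpx2 (0.996), Scn9a (0.994), Zfp219 (0.991) and Disp2 (0.991). All of these values share the contrast of 3 knockout with 3 wild-type arrays, and 399 of 22179 genes reached 0.9. Scn9a, a voltage-gated sodium channel gene, averaged 5.90 in knockout cells and 4.89 in wild-type cells (log2 fold change 1.01, limma adjusted p = 0.0224). Srpx2, for a secreted sushi-repeat protein, rose by 0.77 log2 units (adjusted p = 0.0190) and Disp2, of the dispatched family, by 0.56 (adjusted p = 0.0291). Svil, encoding the actin-binding protein supervillin, differed by 0.17 (adjusted p = 0.318) and Zfp219, a zinc finger gene, by 0.07 (adjusted p = 0.658), so a close pattern went with very different sizes of change. With 1 array left out Srpx2 kept its call in 1 of 6 fits, without wild-type array 2, and Scn9a and Disp2 in 0 of 6 (adjusted p up to 0.104 and 0.131).

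The 9 genes lie on 9 different chromosomes. Around Sntb1, on chromosome 15, the nearest tested genes are Mtbp, a binding partner of Mdm2, and Has2, a hyaluronan synthase. The log2 fold change was 0.09 for Mtbp (SE 0.05, limma adjusted p = 0.597). Has2 averaged 7.11 ± 0.15 in knockout cells and 7.54 ± 0.09 in wild-type cells (SD, n = 3 each), and its log2 fold change of -0.43 (SE 0.09, limma adjusted p = 0.149), which did not pass, had the opposite sign to that of Sntb1. Of the 10 nearest tested genes, 5 on each side, 1 rose, the mTOR inhibitor gene Deptor (log2 fold change 0.37, limma adjusted p = 0.0407). Deptor is named here after its values were seen, and it lost its call with any 1 array left out (adjusted p up to 0.187). The call was also lost with the mean of its 2 probe sets, with every probe set tested singly and with the replicate block. Means were higher in knockout cells for 9 of the 10 and lower for 1, Has2, while 11429 of all 22180 genes had higher means. The groups were separated for 6 of the 10, 5 of them higher in knockout cells, and the median log2 fold change of the 10 was 0.09. Of all genes 16.9% were separated, 8.79% were separated with higher values in knockout cells, and 0.325% were called as higher. Whether the region as a whole differed was not tested.

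**Figure D5:**
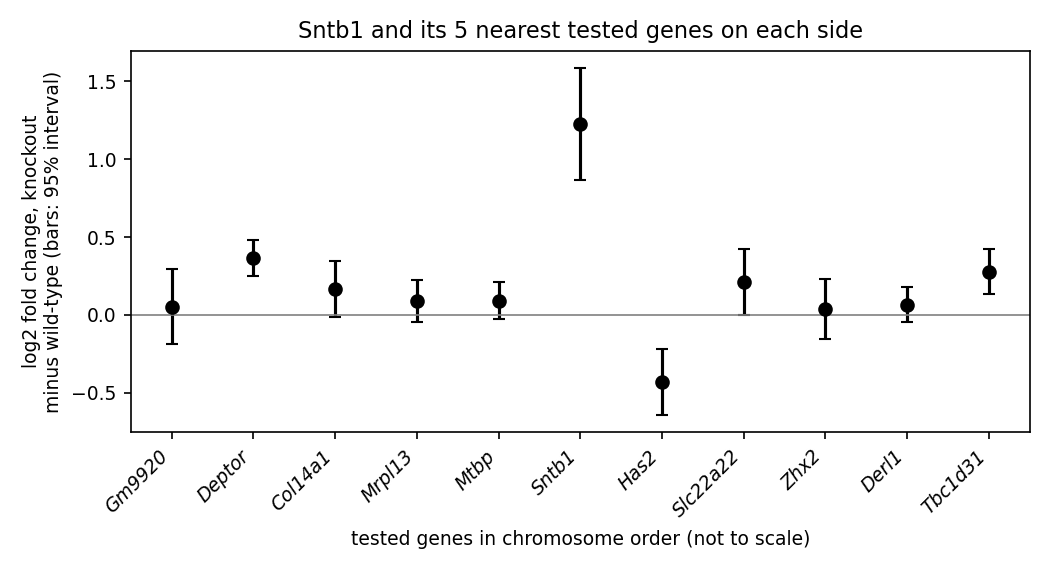
Log2 fold change, SLK knockout minus wild-type, with 95% intervals (limma, 3 arrays per genotype) for Sntb1 and the 5 tested genes nearest to it on either side, in chromosome order and not to scale. Sntb1 at 1.22 is flanked by Mtbp at 0.09 and Has2 at -0.43.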

How the data were processed

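Total RNA of 3 SLK-knockout and 3 wild-type samples was biotin-labelled and measured on 1-colour arrays. The authors deposited 1 table of log2 values for 41345 probe sets, made with Affymetrix Expression Console 1.4.1.46 per the submitters' processing notes. How background, normalization and summarisation were handled, the genome build and the logarithm's base remain not given in the sources used here. A highest value of 12.4 exceeds the natural log of a 16-bit limit (11.1), so log2 was taken.

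Samples were grouped by title. The platform's annotation gave 1 symbol to 23521 probe sets, several to 1814 and none to 16010. The brightest probe set was kept for the 1082 symbols with more than 1, leaving 22180 genes. Genes were tested with limma 3.58.1 in R 4.3.3 (lmFit, eBayes, no covariate or filter, two-sided), with Benjamini-Hochberg adjustment over all genes. GRCm38.p6 served for names, gene order and promoter windows.

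The 9 genes and the lists were chosen with earlier results of these data known. Named were Slk, the 9 genes, each list's calls and its 2 smallest p (markers: its brightest gene), and for Sntb1 the 5 closest patterns and both neighbours. Other laminin alpha chains, Deptor, Elf3 and Esrp1 were added after their values were seen. Listed genes without a single-symbol probe set were not analysed here. On simulated arrays with 22180 genes, 55.2%, 86.6% and 98.5% of genes changed by 0.5, 1 and 1.5 log2 units were recovered, with 13 false calls. The simulated noise was independent between genes and arrays and took each gene's observed SD within groups. It held no effect shared by genes of an array, so these shares do not give the power of the real arrays. Alternatives covered normalization, dim-gene filters, probe set choice, variance model, array weights, a replicate block and leaving out each array. Same-numbered knockout and wild-type arrays deviated from their group means with correlations of 0.04, 0.02 and -0.07, and the numbers were not taken as pairs. The number of arrays limits the precision.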

Additional observations from a re-analysis of the deposited data

How the results depend on the processing

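No member's call other than those of Sntb1 and Sgcb changed under the 16 alternatives, of which the dim-gene filters left out Sntg1, Sntg2 and Sgce, and the stricter one Dmd too. Of the 97 genes called, the number went to 206 and 341 without the dimmest 30% and 50% of genes, to 441 with an intensity trend and 443 with robust estimation too, to 6 with a replicate block, and to 16 to 28 with 1 array left out. With every probe set tested by itself 29 of 41345 were called, a count of probe sets that is not comparable with the 97 genes. The 1 call among the 9 genes became 2 with an intensity trend, with or without robust estimation, 0 with every probe set, 0 with the replicate block and 0 to 1 with 1 array left out. The 3 calls among the list genes became 5 and 6 under the dim-gene filters, 6 under both trend fits, 4 with array weights, 2 with every probe set, 2 with any 1 array left out and 1 with the replicate block. With 1 array left out the log2 fold change of Sntg1 ran between 0.21 and 0.43 without turning in sign. That of Sntg2 ran between -0.015 and 0.029, that of Dmd between -0.055 and 0.015 and that of Utrn between -0.0038 and 0.046, these 3 each turning in sign once. Under the replicate block Sntb1 kept a log2 fold change of 1.22 (SE 0.16, limma adjusted p = 0.195); the samples share only a number, the same-numbered correlations of deviations were 0.04, 0.02 and -0.07, and not every array correlated best with its own number. The dim-gene filters test fewer genes, and the fits without an array use fewer samples. The filters also changed the SE, which for Sntb1 was 0.151 in the main fit and 0.140 without the dimmest 50% of genes. Why the calls moved was not tested for any setting.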
